A study of Drosophila melanogaster with 10 samples.

Results

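*Appl*, *tau*, *Psn*, *nct*, *aph-1*, *pen-2* and *Aplip1* form a set of 7 *Drosophila melanogaster* genes that hold the fly amyloid precursor protein, the microtubule-associated protein Tau, the subunits of γ-secretase and an adaptor of Appl. The genes were chosen by name, with earlier results of these data known, and all 7 were found among the 17716 gene identifiers of the table that holds the 9 TRAP libraries. Translated mRNA of dopaminergic (DA) neurons was profiled by translating ribosome affinity purification and sequencing (TRAP-seq), in which an antibody against GFP pulls down ribosomes with a GFP-tagged RpL10A and the mRNAs on them. The study compared flies that express human PARIS (hPARIS, ZNF746), a repressor of transcription and a substrate of parkin, with flies that do not. PARIS WT flies carried *UAS-hPARIS* wild type, PARIS C571A flies carried the hPARIS C571A mutant, which is described as transcriptionally inactive, and TRAP control flies carried neither, with 3 libraries in each group. All 3 groups carried *dTH-Gal4* and *UAS-GFP::RpL10A* in a *w1118* background, so that TRAP control shares the driver and the tagged ribosome with both PARIS groups. A single whole brain library of *w1118* flies without TRAP was made from total mRNA, and the methods call its source the whole head. The labels give every library an age of day 30, whereas by the methods the flies were 2 days past eclosion when collected. Each PARIS WT library pooled 1500 heads of both sexes, and each PARIS C571A and each TRAP control library pooled 500, as independent biological samples. Both transgenes were driven by the same Gal4, without titration of Gal4. The pull-down was aimed at the cells in which this driver is active, but the libraries also held markers of other cell types, given below.

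As background, Appl is a transmembrane protein of neurons and the fly counterpart of human APP. Like APP, it is cut first outside the membrane, by the α-secretase Kuzbanian or by a β-secretase-like enzyme, and then within the membrane by γ-secretase. γ-Secretase is a complex of Presenilin (Psn), which holds the catalytic site, Nicastrin (*nct*), Aph-1 and Pen-2, and it also releases the intracellular domain of Notch. Aplip1, the counterpart of mammalian JIP1, binds the tail of Appl, kinesin light chain and kinases of the JNK cascade. Tau binds and stabilises microtubules in axons and is phosphorylated by kinases such as Shaggy, Par-1 and Cdk5.

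Human PARIS was described as binding the word TATTTTT, so the 250 bases before the annotated start of each gene were searched for TATTTTT and, as the other strand, AAAAATA. Of the 7 members, 1 held the word, against 4139 of 13945 protein-coding promoters of the same length (29.7%). This was *nct*, with 2 copies on the plus strand that begin 195 and 67 bases before the start. The sequences of *Appl* and *tau*, the members with the highest levels, and of *nct*, the member with the word, are shown from the RefSeq Release 6 genome, 5′ to 3′ along the gene, without bases in exons of neighbouring genes and with TATTTTT in capitals. They cover chrX:530292-530500 on the plus strand, chr3R:27656997-27657077 on the minus strand and chr3R:24851386-24851600 on the plus strand.
Appl: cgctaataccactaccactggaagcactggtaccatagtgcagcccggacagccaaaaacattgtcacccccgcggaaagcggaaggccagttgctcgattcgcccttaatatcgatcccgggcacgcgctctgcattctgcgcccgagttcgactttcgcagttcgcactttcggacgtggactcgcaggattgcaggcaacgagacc
tau: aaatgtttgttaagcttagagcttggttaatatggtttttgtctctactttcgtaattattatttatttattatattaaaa
nct: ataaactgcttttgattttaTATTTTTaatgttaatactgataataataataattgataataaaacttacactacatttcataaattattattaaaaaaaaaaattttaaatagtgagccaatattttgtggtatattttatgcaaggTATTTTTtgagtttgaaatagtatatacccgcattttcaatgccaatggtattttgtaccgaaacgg
From chromatin data of human cells the study later derived a longer, GC-rich word, which was not searched here. A match is a description of these letters, and their absence in *Appl* and *tau* holds for this window and these letters alone.

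The genes lie on 5 chromosome arms of the Release 6 assembly (Ensembl BDGP6.54 annotation, same assembly as the BDGP6.28 build of the authors). *Appl* (FBgn0000108) is at chrX:530501-579044 on the plus strand with 6 annotated transcripts, the longest of 6331 bases, and *tau* (FBgn0266579) is at chr3R:27639886-27656996 on the minus strand with 14 transcripts, the longest of 3754 bases. *Psn* (FBgn0284421) is at chr3L:20432468-20435156, *nct* (FBgn0039234, annotated as *Nct*) at chr3R:24851601-24854869, *aph-1* (FBgn0031458) at chr2L:2766233-2767281, *pen-2* (FBgn0053198) at chr2R:18277439-18278762 and *Aplip1* (FBgn0040281) at chr3L:1196317-1199339, all on the plus strand. The exons of 3 members share bases with exons of a gene on the other strand, namely 47 bases of *Psn* with *mRpL15*, 374 of *nct* with *HDAC11* and 565 of *pen-2* with *sbb*. The paper names a TruSeq RNA kit and no strand setting for alignment or counting. Reads of these overlaps may therefore have been counted for either gene, and the counts of *pen-2* may include reads of *sbb*. *sbb* had between 1470 and 6121 counts in the TRAP libraries, far above the counts of *pen-2* given below.

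The TRAP libraries held between 8819116 and 50102982 estimated counts and the whole brain library held 11619907. Ribosomal RNA took 12.4% to 34.8% of the counts of a TRAP library against 3.13% in whole brain. Mitochondrially encoded genes took 0.301% in replicate 2 of PARIS WT and 0.375% in replicate 2 of PARIS C571A, which stand apart from the other 7 TRAP libraries at 19.2% to 53.8%, and 0.954% in whole brain. Of the markers of DA neurons, *Vmat* and *Ddc* had counts in all 9 TRAP libraries, whereas *ple*, which encodes tyrosine hydroxylase, was listed at 0 in replicate 1 of PARIS WT and replicate 2 of TRAP control, and *DAT* was listed at 0 in 6 of the 9. The summed level of 7 general neuronal markers lay between 1920 and 2950 CPM in the TRAP libraries, and that of 6 photoreceptor markers between 11200 and 14000 CPM. The TRAP libraries thus held RNA of photoreceptors beside the markers of DA neurons. In these pooled preparations, fewer cells of a type and less RNA per cell cannot be told apart.

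Levels were set against each other as CPM, counts relative to the library total scaled by TMM, per kilobase of the longest transcript. On this scale *Appl* was the highest of the 7 in each of the 9 TRAP libraries, with a mean of 39.3 CPM per kilobase and a range of 30.5 to 51.5, and no other member reached its lowest value. *tau* followed with 9.62 CPM per kilobase (5.89 to 14.8), so that the mean of *Appl* was 4.09 times that of *tau*. *Aplip1* had 7.49 (3.59 to 9.23), *Psn* 6.21 (3.23 to 7.91), *nct* 4.06 (1.19 to 6.535), *aph-1* 3.96 (0 to 6.10) and *pen-2* 0.415 (0 to 0.854) CPM per kilobase. The order of neighbours between *tau* and *aph-1* did not hold in every library. *tau* was above *Aplip1* in 6 of 9 libraries, *Aplip1* above *Psn* in 7 of 9, *Psn* above *nct* in 8 of 9 and *nct* above *aph-1* in 4 of 9, and the ranges of each of these pairs overlapped. *pen-2* lay below *Psn*, *nct*, *Aplip1* and *tau* in all 9 libraries without overlap, and below *aph-1* in 7 of 9. Among 10020 protein-coding genes that passed the filter in the 3 groups, the mean of *Appl* was at percentile 94.3, that of *tau* at 73.1, that of *Psn* at 60.9 and that of *pen-2* at 4.89.

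**Figure D1:**
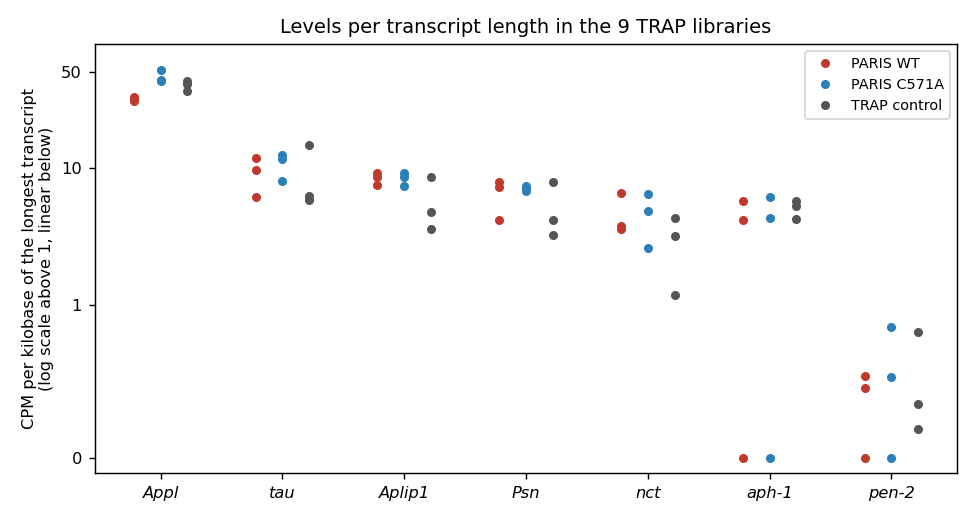
CPM per kilobase of the longest transcript (vertical axis, logarithmic above 1 and linear below) for the 7 genes in the 3 libraries each of PARIS WT, PARIS C571A and TRAP control, 1 point per library. *Appl* lies between 30.5 and 51.5 in all libraries, above every value of the other genes, and *pen-2* does not exceed 0.854.

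*Appl* was lower in PARIS WT than in both other groups in every library. It had 206, 206 and 193 CPM in PARIS WT (201.9 ± 7.76, SD, n = 3), 271, 326 and 279 CPM in PARIS C571A (292 ± 29.9) and 272, 257 and 230 CPM in TRAP control (253 ± 21.0). The 3 PARIS WT values lay below the lowest value of either other group, whereas the values of PARIS C571A and TRAP control overlapped. These values rested on 2671 to 10508 counts per library, so that the spread between libraries and not counting limits the precision.

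**Figure D2:**
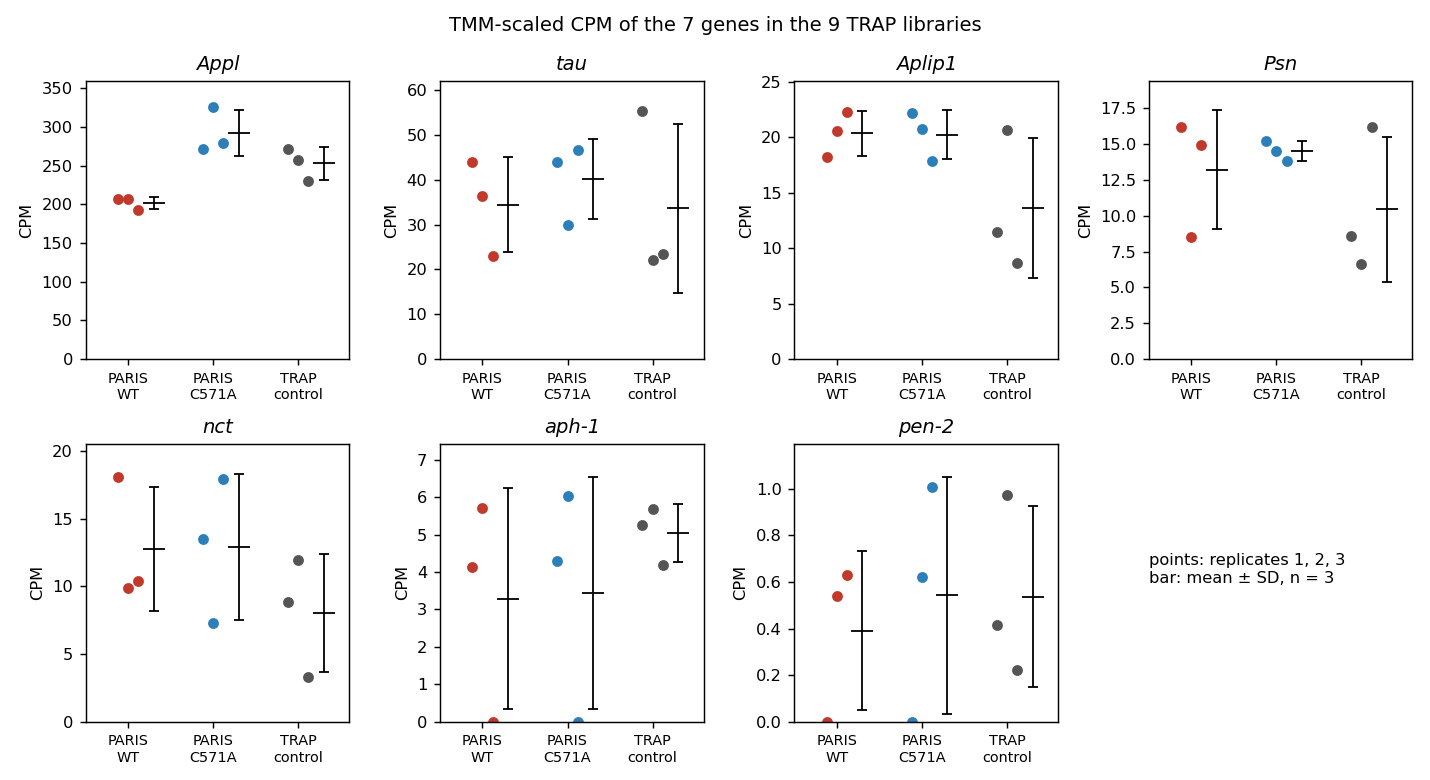
TMM-scaled CPM (vertical axes, each from 0) of the 7 genes in PARIS WT, PARIS C571A and TRAP control. Points are replicates 1, 2 and 3, and bars are the mean ± SD of 3 libraries. The *Appl* values of PARIS WT, from 193 to 206, lie below all values of the other groups, and the groups overlap for the other 6 genes.

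Each pair of groups was then tested in its own table by the quasi-likelihood method of edgeR, and p-values were adjusted by Benjamini-Hochberg over all genes tested, with a threshold of 0.05. In PARIS WT against TRAP control, *Appl* had a log2 fold change of -0.33 (SE 0.107, 95% confidence interval -0.59 to -0.07), with an unadjusted p of 0.0208 and an adjusted p of 0.273 by edgeR. In PARIS WT against PARIS C571A the log2 fold change was -0.49 (SE 0.106, interval -0.75 to -0.24), a level 0.71 times that of PARIS C571A, with an unadjusted p of 0.00288, rank 103 of 9460 genes, and an adjusted p of 0.254 by edgeR. In PARIS C571A against TRAP control it was 0.21 (SE 0.125, interval -0.09 to 0.51, adjusted p = 0.707 by edgeR). In the F-test across all 3 groups, *Appl* had an unadjusted p of 0.00364 and an adjusted p of 0.158 by edgeR. *Appl* thus did not pass the threshold of edgeR in any comparison. DESeq2 placed it past the threshold in PARIS WT against TRAP control (log2 fold change -0.36, adjusted p = 0.0122), in PARIS WT against PARIS C571A (-0.51, adjusted p = 0.000426) and across the 3 groups (adjusted p = 0.000864). Replicate 2 of PARIS C571A, 1 of the libraries with few mitochondrial counts, held the highest *Appl* value. Without replicate 2 of PARIS WT the log2 fold change in PARIS WT against TRAP control was -0.34 (adjusted p = 0.495 by edgeR), and without replicate 2 of both PARIS groups that in PARIS WT against PARIS C571A was -0.42 (adjusted p = 0.476 by edgeR). The gene was picked out by the study from these same libraries, so its direction here is not independent evidence. The study also measured fly *Appl* by RT-qPCR and binding of PARIS at human *APP* by ChIP-qPCR, and those data were not used here.

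All lists of cell type markers were read for the order of *Appl* across the groups. Group means of the photoreceptor sum followed it, although the sums of PARIS WT and TRAP control overlapped. *ninaE* and *Arr2* carried this sum, with 9490 and 3406 CPM in replicate 1 of TRAP control when scaled with whole brain. The next highest, *norpA*, had 1095 CPM there, and the order of single markers was not read. The photoreceptor markers summed to 11200 to 12500 CPM in PARIS WT, 13700 to 14000 CPM in PARIS C571A and 12400 to 13500 CPM in TRAP control, in the same order of groups as the mean of *Appl*, with the 6 markers above 0 in all of these libraries. The general neuronal markers summed to 2070 to 2930 CPM in PARIS WT, 2780 to 2950 CPM in PARIS C571A and 1920 to 2500 CPM in TRAP control, with *Syx1A* at 0 in 1 PARIS WT library, and did not follow that order. Testis markers, which had been included as a check of other tissues, summed to 13.4 to 15.7 CPM in PARIS WT, 89.8 to 114 CPM in PARIS C571A and 305 to 342 CPM in TRAP control, in another order. The sums of glia (836, 963 and 701 CPM on average in PARIS WT, PARIS C571A and TRAP control), of muscle (412, 447 and 336 CPM), of fat body (13100, 14100 and 11500 CPM) and of DA neurons (393, 390 and 420 CPM) did not follow it either. The part of these sums in the *Appl* values was not tested.

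**Figure D3:**
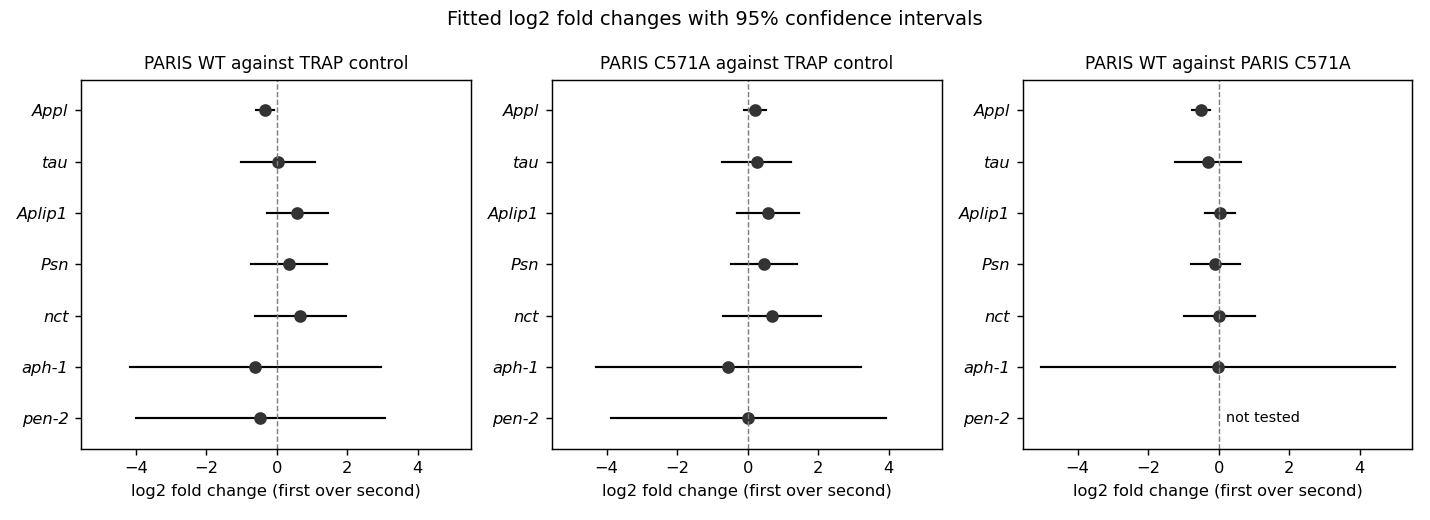
Log2 fold changes by edgeR (horizontal axis, first group over second) of the 7 genes with 95% confidence intervals, for PARIS WT against TRAP control, PARIS C571A against TRAP control and PARIS WT against PARIS C571A, n = 3 libraries per group. The interval of *Appl* lies below 0 in both comparisons of PARIS WT, all other intervals cross 0, those of *aph-1* and *pen-2* are the widest, and *pen-2* was not tested between the PARIS groups.

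No member passed the threshold of edgeR in any pairwise comparison. Between PARIS WT and TRAP control, 0 of 7 tested members were called, against 0.712% of the 9697 genes tested. At an unadjusted p under 0.05 there was 1 member, *Appl*, against 11.6% of all genes, and *Appl* was also the 1 member whose PARIS WT values all lay below TRAP control, as did those of 12.3% of all genes. In PARIS C571A against TRAP control, 0 of 7 were called, against 0.17% of 9986 genes, and 0 had an unadjusted p under 0.05, against 9.83%. DESeq2 also called 0 members there. Between PARIS WT and PARIS C571A, 0 of 6 tested members were called, against 0.0529% of 9460 genes. At an unadjusted p under 0.05 there was again 1, *Appl*, against 8.46%, and it was the 1 member without overlap and lower in PARIS WT, against 9.11% of all genes. In the 3-group F-test 0 of 7 were called, against 0.751% of 10524 genes, and 1 had an unadjusted p under 0.05, against 11.8%. With so few members, these shares do not set the 7 genes apart from the other genes. The median log2 fold change of the members was 0.03 in PARIS WT against TRAP control, 0.26 in PARIS C571A against TRAP control and -0.06 in PARIS WT against PARIS C571A, beside medians of -0.02, 0.01 and -0.03 over all genes tested. Both comparisons with TRAP control share its 3 libraries.

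*tau* varied more within groups than between them. It had 44.0, 36.5 and 23.0 CPM in PARIS WT (34.5 ± 10.7, SD, n = 3), 43.9, 29.9 and 46.7 CPM in PARIS C571A (40.2 ± 9.002) and 55.4, 22.1 and 23.4 CPM in TRAP control (33.6 ± 18.9). Replicate 1 of TRAP control held the highest value of the 9 libraries and replicates 2 and 3 of the same group stood at the low end, so all groups overlapped. The log2 fold change was 0.03 in PARIS WT against TRAP control (interval -1.02 to 1.09, adjusted p = 0.996 by edgeR) and 0.26 in PARIS C571A against TRAP control (-0.73 to 1.24, adjusted p = 0.947). In PARIS WT against PARIS C571A it was -0.30 (-1.23 to 0.63, adjusted p = 0.961 by edgeR). Without replicate 1 of TRAP control, the first of these was 0.60 (adjusted p = 0.545) and the second 0.83 (adjusted p = 0.429). They were -0.19 and 0.03 without replicate 2 of TRAP control, and -0.17 and 0.06 without replicate 3, so the size of both and the direction of the first depend on which TRAP control libraries are used.

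The deposited tables gave different counts of *tau* for the same libraries. In the table of the 3 groups *tau* had 818, 472 and 473 counts in PARIS WT and 1106, 625 and 1761 counts in PARIS C571A. In the table of the PARIS groups alone it had 381, 688 and 681 counts in the same PARIS WT libraries and 1499, 894 and 1235 counts in the same PARIS C571A libraries. The ratios of the second table to the first were 0.466, 1.46 and 1.44 in PARIS WT and 1.36, 1.43 and 0.701 in PARIS C571A, so that 4 libraries were higher and 2 lower. Over the 3 libraries of a group the sums stayed close, with 1750 against 1763 counts in PARIS WT and 3628 against 3492 in PARIS C571A. Taken from the first table, the log2 fold change of *tau* in PARIS WT against PARIS C571A was -0.18 (adjusted p = 0.981 by edgeR). Of the 7 members, *tau* and *pen-2* differed between these tables, as did 761 of 17691 genes (4.3%), and *Appl* was identical in all 6 libraries. The tables that hold TRAP control matched the table of the 3 groups.

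**Figure D4:**
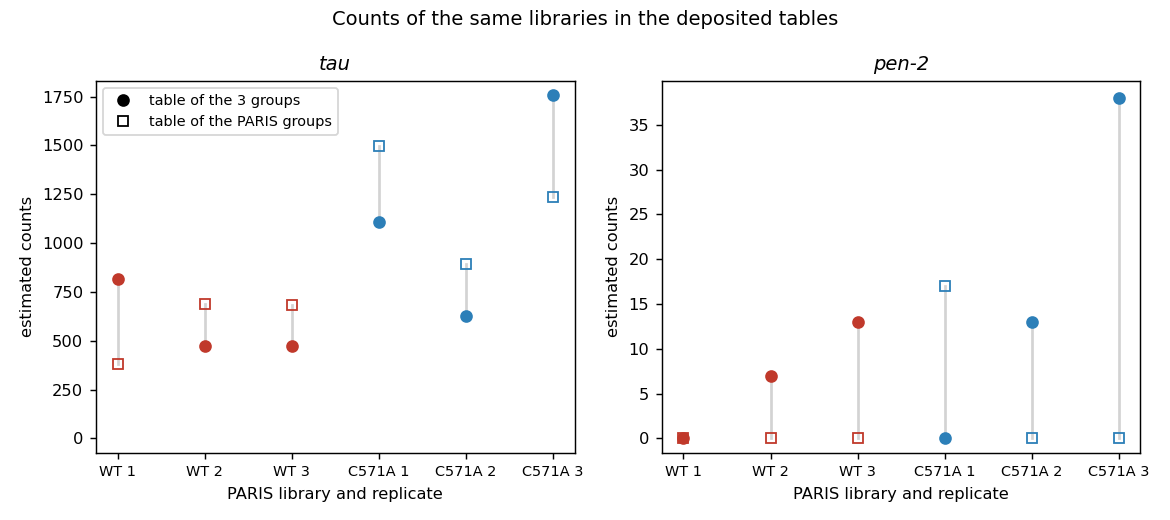
Estimated counts (vertical axes, from 0) of *tau* and *pen-2* in the 6 PARIS libraries, as filled circles in the table of the 3 groups and as open squares in the table of the PARIS groups. The 2 values of a library differ for *tau* in all 6 libraries, by ratios of 0.466 to 1.46, and *pen-2* is above 0 in different libraries in the 2 tables.

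Among the γ-secretase genes, *Psn* had 16.2, 8.50 and 14.96 CPM in PARIS WT (13.2 ± 4.14, SD, n = 3), 15.2, 14.5 and 13.8 CPM in PARIS C571A (14.5 ± 0.691) and 8.57, 6.62 and 16.2 CPM in TRAP control (10.5 ± 5.05). The 3 PARIS C571A libraries were close to each other, and the 3 TRAP control libraries spanned both ends. Its log2 fold change was 0.34 in PARIS WT against TRAP control (interval -0.74 to 1.41), 0.47 in PARIS C571A against TRAP control (-0.46 to 1.41) and -0.10 in PARIS WT against PARIS C571A (-0.79 to 0.60). *nct*, whose product binds substrates of the complex, had 18.1, 9.89 and 10.4 CPM in PARIS WT, 13.5, 7.28 and 18.0 CPM in PARIS C571A and 8.88, 11.9 and 3.28 CPM in TRAP control. Its means were 12.8 ± 4.60, 12.9 ± 5.37 and 8.03 ± 4.39 CPM in these groups, which overlapped. Its log2 fold change was 0.67 in PARIS WT against TRAP control (-0.63 to 1.96), 0.68 in PARIS C571A against TRAP control (-0.70 to 2.07) and 0.02 in PARIS WT against PARIS C571A (-0.98 to 1.03). Adjusted p-values by edgeR were between 0.797 and 0.999 for both genes in all of these comparisons.

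*aph-1*, which encodes a scaffold of the complex, had 4.15, 5.72 and 0 CPM in PARIS WT, 4.29, 6.03 and 0 CPM in PARIS C571A and 5.25, 5.69 and 4.17 CPM in TRAP control. Replicate 3 of both PARIS groups stood at 0 counts, although replicate 3 of PARIS C571A was the deepest library with 50102982 counts. At the mean CPM of the other 2 libraries of their groups, these libraries would have held 102 counts in PARIS WT and 195 counts in PARIS C571A. The libraries with counts held 56 to 126, and in these the 3 groups lay between 4.15 and 6.03 CPM. *ple*, *DAT* and *Syx1A* were likewise listed at 0 in some libraries with counts in others, and the part of the estimation in these zeros was not tested. The log2 fold change was -0.62 in PARIS WT against TRAP control (interval -4.18 to 2.94), -0.55 in PARIS C571A against TRAP control (-4.30 to 3.20) and -0.03 in PARIS WT against PARIS C571A (-5.05 to 4.998), and these values rest on the libraries at 0.

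*pen-2*, which encodes the smallest subunit, had 0, 7 and 13 counts in PARIS WT, 0, 13 and 38 counts in PARIS C571A and 8, 20 and 3 counts in TRAP control. These correspond to 0, 0.541 and 0.631 CPM in PARIS WT, 0, 0.623 and 1.01 CPM in PARIS C571A and 0.416, 0.973 and 0.224 CPM in TRAP control. All groups overlapped, and the intervals of the log2 fold change, -4.00 to 3.07 in PARIS WT against TRAP control and -3.89 to 3.92 in PARIS C571A against TRAP control, exclude little. In the table of the PARIS groups alone *pen-2* had 0 counts in all 3 PARIS WT libraries and 17, 0 and 0 counts in PARIS C571A, and it did not pass the filter there. A difference of *pen-2* was not detectable with these counts, which lie beside 1470 to 6121 counts of *sbb* on the other strand.

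The subunits of the complex did not keep 1 order across libraries. Per kilobase, *Psn* was the highest of the 4 genes in 6 of 9 libraries and *aph-1* in the other 3, and *pen-2* was the lowest in 7 and *aph-1*, at 0, in 2. *Psn* over *nct* ran between 1.04 and 2.69 in the 6 PARIS libraries and was 1.30, 0.75 and 6.67 in TRAP control. Among the 7 members, Pearson's r of log2 CPM over the 9 libraries ran from -0.499 for *Psn* and *pen-2* to 0.673 for *nct* and *Aplip1*, and was 0.248 for *Appl* and *tau*. These 9 points share groups, depth and scaling, and r is given as a description.

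*Aplip1* had 18.3, 20.5 and 22.2 CPM in PARIS WT (20.4 ± 2.01, SD, n = 3), 22.2, 20.7 and 17.8 CPM in PARIS C571A (20.3 ± 2.21) and 11.5, 20.7 and 8.64 CPM in TRAP control (13.6 ± 6.29). Replicate 2 of TRAP control was as high as the PARIS libraries and the other 2 were lower than any of them. The log2 fold change was 0.58 in PARIS WT against TRAP control (interval -0.29 to 1.44, adjusted p = 0.684 by edgeR) and 0.57 in PARIS C571A against TRAP control (-0.30 to 1.45, adjusted p = 0.724 by edgeR). Between PARIS WT and PARIS C571A it was 0.05 (-0.38 to 0.47, adjusted p = 0.994 by edgeR), the narrowest interval after that of *Appl*.

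TRAP control was set against the single whole brain library to ask which of the genes were enriched in the pulled-down RNA. Whole brain has no replicate, so log2 ratios of CPM are given for each TRAP control replicate with no test. *tau* was the most enriched of the genes with counts on both sides, with 67.8, 26.9 and 28.2 CPM in TRAP control against 5.81 CPM in whole brain, which rested on 120 counts (exact Poisson interval 99.5 to 144, counting error only). Its log2 ratios were 3.53, 2.20 and 2.27, a mean of 2.67 ± 0.75 (SD, n = 3). *Appl* had 332, 313.5 and 278 CPM in TRAP control against 151 CPM in whole brain, with log2 ratios of 1.14, 1.05 and 0.88 and a mean of 1.02 ± 0.13. Among 14480 genes with counts, the mean of *tau* was at percentile 93.8 and that of *Appl* at 78.2, and the median of all genes was -0.45. The 7 general neuronal markers were all higher in the 3 TRAP control replicates, with a median of 1.82. *Appl* thus lay below the median of these markers and *tau* above it.

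*pen-2* had 8, 20 and 3 counts in TRAP control and 0 in whole brain. The 0 of whole brain was read as counting alone, with a floor of 3 counts, 0.145 CPM. On that reading the mean of *pen-2* in TRAP control, 0.655 CPM, was at least 4.51-fold higher. Without replicate 2 of TRAP control the mean was 0.389 CPM and the bound 2.68-fold, and replicate 3 held no more counts than the floor. Whole brain also listed *mts*, of the Tau kinases and phosphatases, at 0, against 80.48, 103.8 and 105.6 CPM in TRAP control. The fat body marker *Yp3* was at 0 there too, against 4851, 0 and 5680 CPM. The part of the estimation in the zeros of whole brain was not tested, so the bound may not hold. *aph-1* had 6.42, 6.94 and 5.04 CPM in TRAP control against 5.90 CPM in whole brain and a mean log2 ratio of 0.04 ± 0.24. *nct* had 10.9, 14.5 and 3.96 CPM in TRAP control against 13.9 CPM, with log2 ratios of -0.36, 0.06 and -1.80. *Psn* had 10.5, 8.06 and 19.5 CPM in TRAP control against 23.6 CPM in whole brain (-0.99 ± 0.65), and *Aplip1* had 14.0, 25.2 and 10.4 CPM against 41.3 CPM (-1.42 ± 0.65). *Psn* and *Aplip1* were lower than whole brain in all 3 replicates. Of the 7 members, 3 were higher in all 3 replicates, against 22.3% of all genes, and 2 were lower in all 3, against 41.1%. The 3 higher ones were *tau*, *Appl* and *pen-2*. Of these, *pen-2* rests on 0 counts in whole brain, and it may not be higher if that 0 came from the estimation. When libraries were scaled by their totals alone, the median of all genes shifted to -1.44, the ratio of *Appl* was -0.09, that of *aph-1* -1.06 and that of *tau* 1.57, so the directions of *Appl* and *aph-1* depend on the scaling and that of *tau* does not. With these 4 libraries scaled together, neuronal markers summed to 2320 to 3050 CPM in TRAP control against 692 CPM in whole brain. The 4 markers of DA neurons summed to 404 to 586 CPM against 185 CPM, and 2 of the 4 were higher in all 3 replicates. *ple* had 60.5, 0 and 42.8 CPM against 19.35 CPM, and *DAT* had 98.6, 0 and 0 CPM against 14.9 CPM. The median log2 ratio of the 4, -0.42, rests on these zeros. All 8 testis markers were higher in the 3 replicates, with a median of 2.17 and sums of 373 to 416 CPM against 116 CPM. The sum of the 6 glial markers, 833 to 881 CPM against 976 CPM, was carried by *Gs2* with 754, 774 and 803 CPM against 461 CPM, whereas 4 of the 6 were lower in all 3 replicates and the median was -3.02. Muscle markers summed to 381 to 432 CPM in TRAP control against 2100 CPM in whole brain, with *Act88F* at 0 in TRAP control, and photoreceptor markers to 15100 to 16500 CPM against 16400 CPM. The part of other cell types in these ratios was not tested.

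**Figure D5:**
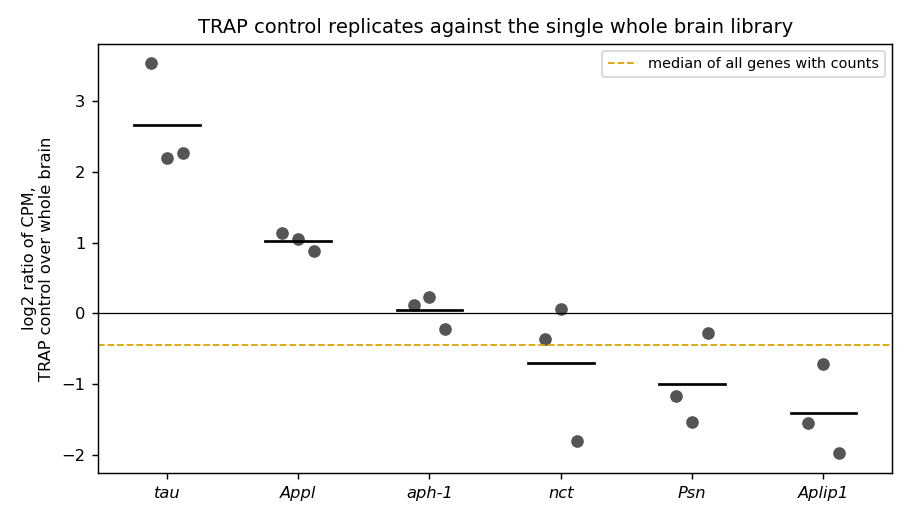
Log2 ratio of CPM of each TRAP control replicate over the single whole brain library (vertical axis) for 6 genes, with points for replicates 1, 2 and 3, black bars for their mean, and a dashed line at the median of all genes (-0.45). *tau* and *Appl* lie above 0 in all 3 replicates, *Psn* and *Aplip1* below 0, and *pen-2* is left out because whole brain held 0 counts.

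Genes that act with the members were read as 7 lists, and 0 genes of any list passed the threshold of edgeR in any pairwise comparison. Of 11 adaptors and partners of Appl, 8 had a negative log2 fold change in PARIS WT against TRAP control (median -0.17) and 7 in PARIS WT against PARIS C571A (median -0.27). Of all genes tested, 51.6% were negative in the first of these comparisons, 52.7% in the second and 49.5% in PARIS C571A against TRAP control. *Fas2*, a cell adhesion molecule of neurons, averaged 73.9 ± 5.41 CPM in PARIS WT and 101.9 ± 4.32 CPM in PARIS C571A (log2 fold change -0.46, adjusted p = 0.276 by edgeR, 0.0113 by DESeq2). *Nrg*, the L1-type adhesion molecule Neuroglian, had a log2 fold change of -0.53 in PARIS WT against TRAP control (adjusted p = 0.322 by edgeR). *Galphao*, a G protein subunit, had 0.50 in PARIS C571A against TRAP control (adjusted p = 0.339 by edgeR).

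Of 13 genes of other microtubule-associated proteins, 9 had a negative log2 fold change in PARIS WT against TRAP control, with a median of -0.32 beside -0.02 over all genes tested. *Jupiter* averaged 101.9 ± 5.49 CPM in PARIS WT and 162.6 ± 35.4 CPM in TRAP control (log2 fold change -0.67, adjusted p = 0.15 by edgeR, 0.00634 by DESeq2). *shot*, which encodes a spectraplakin that links actin and microtubules, had -0.36 in PARIS WT against TRAP control and -0.53 in PARIS C571A against TRAP control (adjusted p = 0.328 and 0.338 by edgeR, 0.0255 and 0.0133 by DESeq2). *futsch*, the MAP1B counterpart, averaged 456 ± 24.0 CPM in PARIS C571A and 624 ± 41.7 CPM in TRAP control (-0.45, adjusted p = 0.199 by edgeR, 3.88e-05 by DESeq2). *Mapmodulin* had 0.54 in PARIS C571A against TRAP control, and *stai*, the stathmin gene, had -0.30 in PARIS WT against PARIS C571A (adjusted p = 0.468 and 0.558 by edgeR). *tau* itself had 0.03 in PARIS WT against TRAP control, with an interval of -1.02 to 1.09 that leaves its direction undetermined.

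Of the kinases and phosphatases of Tau, 9 of 11 tested had a negative log2 fold change in PARIS WT against TRAP control (median -0.09) and 9 of 12 in PARIS WT against PARIS C571A (median -0.11). *CkIalpha*, casein kinase Iα, averaged 163 ± 3.05 CPM in PARIS C571A and 123 ± 1.06 CPM in TRAP control (log2 fold change 0.41, adjusted p = 0.216 by edgeR, 0.000643 by DESeq2). It had -0.37 in PARIS WT against PARIS C571A (adjusted p = 0.332 by edgeR, 0.0272 by DESeq2), in which both comparisons share PARIS C571A. In the JNK cascade, *Tak1* had 0.81 in PARIS C571A against TRAP control and -0.80 in PARIS WT against PARIS C571A (adjusted p = 0.481 and 0.469 by edgeR). *Mkk4* had -0.71 in PARIS WT against PARIS C571A (adjusted p = 0.508 by edgeR), with overlap, and 0.09 with counts taken from the 3-group table. Of the axonal transport motors, which carry Appl and Aplip1, *Dhc64C*, the dynein heavy chain, had 0.28 in PARIS WT against PARIS C571A (adjusted p = 0.54 by edgeR), and the median of the 14 motor genes was 0.04 in both comparisons of PARIS WT.

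Of the proteases that shed Appl or degrade amyloid peptides, 0 of 11 tested had an unadjusted p under 0.05 in any comparison. Their median log2 fold change was -0.27 in PARIS C571A against TRAP control, with 9 of 11 negative, and 0.28 in PARIS WT against PARIS C571A, with 9 of 11 positive, beside 49.5% and 52.7% negative over all genes. Against whole brain, 9 of 12 of these genes were lower in all 3 TRAP control replicates, against 41.1% of all genes. The median log2 ratio of the 12 was -1.09 beside -0.45 over all genes. *Nep5* was at 0 in all 3 TRAP control replicates against 33 counts in whole brain, *Bace* at 0 in replicate 2 and *Nep2* in replicate 3. Another 3 of the 12 were higher in all 3 replicates, close to the 22.3% of all genes. These 3, named after their values were seen, were *Kul* (1.61 ± 0.25), *SppL* (1.12 ± 0.14) and *kuz* (0.51 ± 0.23), of which *kuz* encodes an α-secretase. Scaling by library totals alone moved the median of all genes to -1.44 and *Appl* from 1.02 to -0.09. The proteases were not read on that scale, so the directions of *SppL* and *kuz* may depend on the scaling. In the Notch pathway, the other substrate route of γ-secretase, *neur*, which encodes an E3 ligase of Notch ligands, averaged 16.2 ± 1.55 CPM in PARIS WT and 39.0 ± 6.19 CPM in TRAP control without overlap. Its log2 fold change was -1.27 (SE 0.192) with an unadjusted p of 0.000479 and an adjusted p of 0.06 by edgeR, and the call changed with the filter and the tool, at 0.0498 with a mean of at least 50 counts and 6.19e-06 by DESeq2. In PARIS C571A against TRAP control *neur* had -0.95 (adjusted p = 0.441 by edgeR).

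Over the 9 TRAP libraries, the genes most like *Appl* among 10523 were *CG10283* (Pearson's r of log2 CPM 0.943), *lncRNA:mimi* (0.942) and *CG46314* (0.933). Those most like *tau* were *Upf1* (0.935), *Asx* (0.933) and *CG31998* (0.927). They are the top of a search over all genes in 9 points that share groups and scaling, and are given as a description.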

How the data were processed

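RNA of TRAP libraries (3 each of PARIS WT, PARIS C571A and TRAP control) and of 1 whole brain library was sequenced on an Illumina HiSeq sequencer. The authors aligned reads with HISAT2 2.1.0 to the BDGP6.28 fly genome, estimated abundances with StringTie 2.0 and its correction for multi-mapped reads, and converted them with StringTie's prepDE script, so the deposited values are estimated counts per gene, as whole numbers without normalization. The submitters' processing notes also name FastQC 0.11.6, TopHat2 2.0.13, SAMtools, DESeq and DESeq2 1.24.0. The 87 entries that name no gene were left out. Symbols and positions came from Ensembl BDGP6.54, which held 17619 of 17716 identifiers.

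Genes were kept with edgeR's filterByExpr (minimum count 10, minimum total 15), scaled by TMM and tested per pair of groups with the quasi-likelihood F-test of edgeR 4.0.16 in R 4.3.3. Levels per library and group means of the members come from the table of the 3 groups. Fold changes of tests, and the group means of genes of the lists, come from the table of the pair. Log2 CPM used a prior count of 1. Whole brain was compared without a test. Python 3.11.15, pandas 2.3.3 and matplotlib 3.10.9 handled tables and plots. The scripts were tested on simulated data. The SD between libraries, n = 3, gives the precision. Alternatives were median-of-ratios size factors, scaling without rRNA and mitochondrially encoded genes, other filters, DESeq2 1.42.0, a robust fit, a replicate block, all 9 TRAP libraries in 1 fit, the counts of the other table, each library left out and, added after seeing the data, replicate 2 of both PARIS groups left out.

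The members and lists were chosen with earlier results of these data known. Named are all 7 members, from each list up to 3 genes with the smallest unadjusted p under 0.05 per comparison, and the 3 genes most like *Appl* and *tau*. Markers, overlapping genes, and *mts* and 3 proteases set against whole brain fall outside this rule. Protein sequences were not used here.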

Additional observations from a re-analysis of the deposited data

How the results depend on the processing

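Of 290 fold changes of members under alternatives, over 20 fold changes, 263 kept their direction and side of the threshold. *Appl* passed the threshold with DESeq2 alone, so that 1 member was called by DESeq2 in PARIS WT against TRAP control, 1 in PARIS WT against PARIS C571A and 1 across the 3 groups, against 0 by edgeR under every other setting. DESeq2 was also the tool of the study's own gene-level calls. Of all genes, DESeq2 called 572 lower and 167 higher in PARIS WT against TRAP control (edgeR 59 and 10), 304 and 135 in PARIS C571A against TRAP control (15 and 2), 189 and 140 in PARIS WT against PARIS C571A (4 and 1) and 682 across the 3 groups (79). A robust fit called 24 lower and 4 higher in PARIS C571A against TRAP control and 11 and 7 in PARIS WT against PARIS C571A. All 9 libraries in 1 fit called 5 higher in PARIS C571A against TRAP control and 27 lower and 8 higher in PARIS WT against PARIS C571A, and counts taken from the 3-group table called 0 lower and 2 higher there.

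Deviations from group means had r of -0.0369 to 0.0514 between libraries of the same replicate number and -0.0375 to 0.0321 between others. These r over all genes do not settle whether libraries of the same number were prepared together. Replicate 2 of PARIS WT and of PARIS C571A both had few mitochondrial counts (0.301% and 0.375%), and a shared preparation was not tested. With a replicate block, 2 genes were called lower and 0 higher in PARIS WT against TRAP control, 0 in either direction in both other pairs, 16 across the 3 groups, and 0 members. *pen-2* in PARIS C571A against TRAP control reversed to -0.85 with the block, to -0.01089 with median-of-ratios size factors and to -0.005208 with DESeq2. Between PARIS WT and PARIS C571A, *nct* reversed to -0.01452 and *Mkk4* to 0.04524 in the fit of all 9 libraries, and *Mkk4* to 0.08586 with counts taken from the 3-group table. With library totals alone, *Appl* against whole brain reversed to -0.08525, and 4 members were lower in all 3 replicates, against 2.

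With 1 library left out, PARIS WT against TRAP control called 12 to 44 genes lower and 0 to 8 higher, PARIS C571A against TRAP control 2 to 11 and 0 to 13, PARIS WT against PARIS C571A 0 to 19 and 0 to 6, and the 3 groups 33 to 63. In PARIS WT against TRAP control, *tau* ran from -0.1914 to 0.6002, *pen-2* from -0.9986 to 0.2795, *nct* from 0.2981 to 1.072, *Psn* from 0.1035 to 0.7998, *Aplip1* from 0.3389 to 1.019 and *aph-1* from -1.276 to -0.02932. In PARIS C571A against TRAP control, *aph-1* ran from -1.23 to 0.04178, *pen-2* from -0.7804 to 0.7586, *tau* from 0.03143 to 0.8308, *nct* from 0.3156 to 1.088, *Psn* from 0.2361 to 0.9346 and *Aplip1* from 0.3343 to 1.012. Between PARIS WT and PARIS C571A, *tau* ran from -0.724 to -0.03432, *aph-1* from -0.705 to 0.6522, *nct* from -0.3191 to 0.3333, *Psn* from -0.2773 to 0.1305 and *Aplip1* from -0.04236 to 0.1149. Without replicate 2 of both PARIS groups, a setting chosen after seeing the data, *Psn* was 0.1426 and *nct* -0.1061 there, both reversed, and 3 genes were called lower and 0 higher. The causes were not tested. *Appl* kept its direction in all 3 pairs with any 1 library left out. *pen-2* is the member with the fewest counts, at most 38 in a TRAP library.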
